A study of Mus musculus with 6 samples.

Results

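The sciatic nerve carries the axons of motor, sensory and sympathetic neurons, whose cell bodies lie outside it, in the spinal cord and in ganglia. Described here are 10 transcripts that neurons make and that mark axons or neurons: the tubulin gene Tubb3, the neurofilament genes Nefl, Nefm and Nefh, the peripherin gene Prph, and Stmn2, Uchl1, Elavl4, Isl1 and Snap25. They were taken from the count table by symbol and are 10 of its 54838 genes. The list was drawn up with earlier results of these data known, so shares and medians over it are descriptions. All 10 passed the filter on low counts, which kept 18775 genes in all. RNA was sequenced from sciatic nerves of C57 Bl mice at postnatal day 3, in 3 wild-type (WT) libraries and 3 libraries of CnpCre Actl6a fl/fl mice, called cKO here. In these mutants Cre recombinase under control of Cnp, a gene of myelinating glia, acts on loxP-flanked alleles of Actl6a, which encodes the chromatin remodelling subunit BAF53a. The labels do not say whether the WT mice carried Cre or the floxed alleles, nor how many animals gave a library, so p-values reflect only how much these libraries vary, which may be partly technical. The question was whether transcripts of axons and neurons differ between the 2 kinds of nerve.

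Most RNA in a nerve comes from cells with a nucleus there, such as Schwann cells, fibroblasts, endothelium and macrophages. Axons also hold messenger RNA, which is made in the distant cell body, carried along microtubules and translated locally. Among the best known axonal messages are those for cytoskeletal proteins, which axons need in bulk for growth and calibre, and some of these genes are active at low levels in glia and other cells too. A count from whole nerve does not say which cell a transcript came from, and fewer cells of a type cannot be told apart from less RNA per cell.

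Libraries held 31404107 to 36760296 counts. Levels are given as CPM (counts scaled to library size with TMM factors). Schwann cell markers, which define the tissue, were present in all 6 libraries, with the summed levels of 9 such genes given with the other cell markers. The library of cKO replicate 2 stood apart: the 15 skeletal muscle markers took 6.21% of its counts, against 0.377 to 0.592% in the other 5. Fold changes of the 10 transcripts are therefore given with and without it, and those of other named genes also without it where the call changed. Of the 18775 genes tested with edgeR's quasi-likelihood test, 8.55% were called higher and 10.3% lower in cKO nerves at a Benjamini-Hochberg adjusted p below 0.05, and without cKO replicate 2 these shares were 17.8% and 17.6% of 19256. Actl6a itself was at 48.6, 53.3 and 46.2 CPM in the WT group and 42.4, 47.6 and 41.5 CPM in the cKO group and was not called (log2 fold change -0.17, edgeR adjusted p = 0.243), and without cKO replicate 2 it was called lower (-0.24, edgeR adjusted p = 0.0487).

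The transcripts of Tubb3, Isl1 and Nefh rose in cKO nerves, and the other 7 were not called. Summed over the 10 genes, the level was 87.3, 90.2 and 87.0 CPM in the WT libraries and 179.9, 99.2 and 170.4 CPM in the cKO libraries. The sum was thus close to WT in cKO replicate 2 and well above it in cKO replicates 1 and 3. Of the 10 genes 3 were called higher and 0 lower, beside 8.55% of all genes tested called higher. The same 3 had every cKO library above every WT library, as did 21% of all genes tested. The median log2 fold change was 0.83 over the 10 transcripts and 0.04 over all genes tested. In cKO replicates 1 and 3 all 10 transcripts stood above the highest WT library. In cKO replicate 2 only 3 did, those of Tubb3, Isl1 and Nefh. The share of all genes tested that did so in a single cKO library was not counted, so these counts are descriptions. Without cKO replicate 2, 9 of the 10 were called higher, all but Snap25, beside 17.8% of all genes tested, and the median was 1.10. Without cKO replicate 3, 0 of the 10 were called, beside 4.38% of the genes tested called higher.

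**Figure D1:**
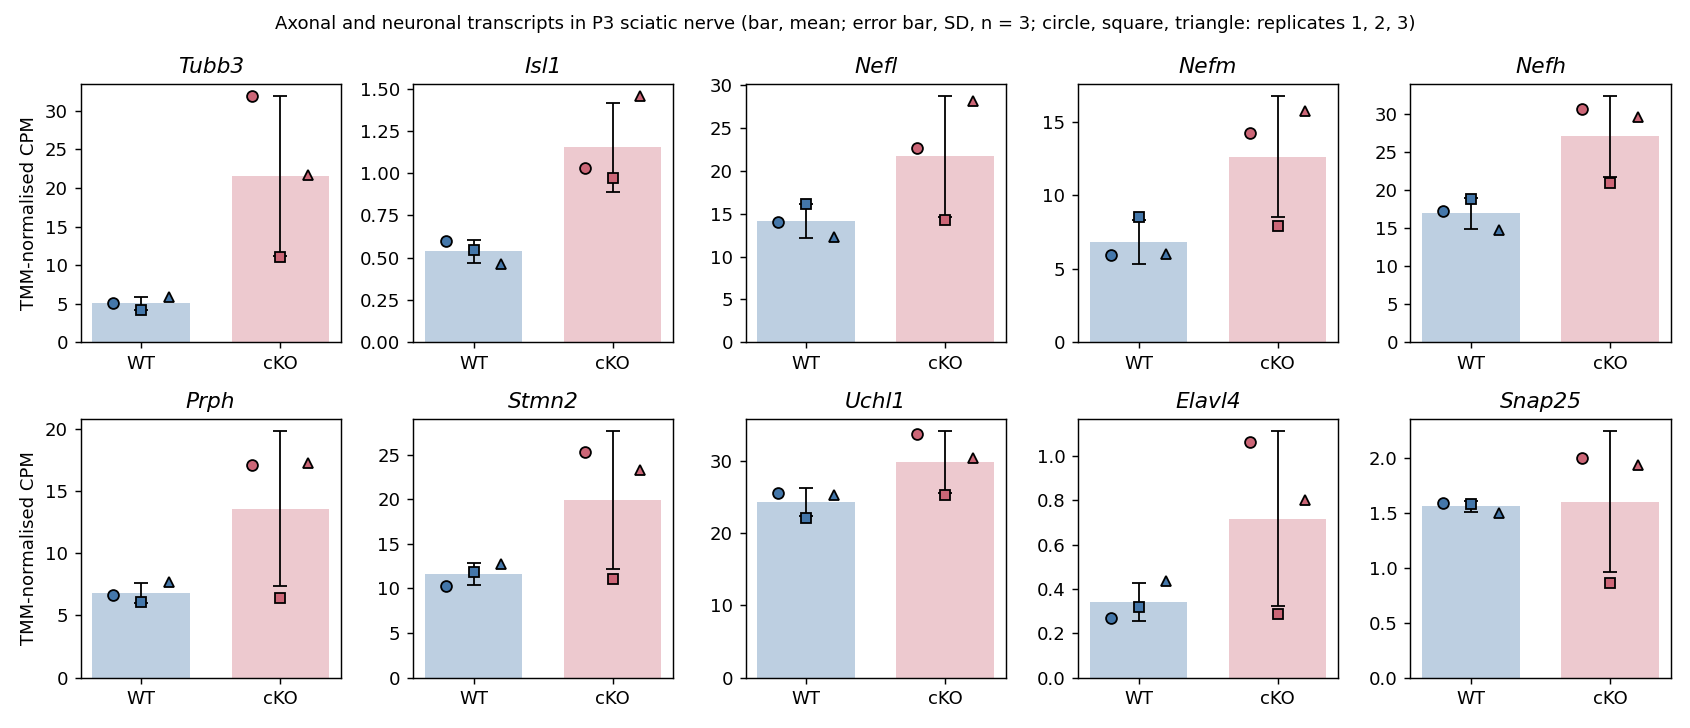
TMM-normalised CPM (y axis, from 0) of the 10 transcripts in WT and cKO nerves; bars are means, error bars SD (n = 3), and circles, squares and triangles are replicates 1, 2 and 3. The square of cKO replicate 2 lies at or near the WT points for most genes, while Tubb3, Isl1 and Nefh have every cKO point above every WT point.

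Tubb3 encodes class III beta-tubulin, the beta-tubulin used as a marker of neurons, and its gene lies on GRCm38 chromosome 8 (123411424 to 123422015, plus strand). Its level was 5.11, 4.15 and 5.88 CPM in the WT group and 31.9, 11.1 and 21.6 CPM in the cKO group. Every cKO library was above every WT library, including cKO replicate 2, the lowest of its group. Tubb3 rose 4.26-fold, between means of 5.05 ± 0.869 and 21.5 ± 10.4 CPM on average (SD, n = 3 each, log2 fold change 2.09, SE 0.39, edgeR adjusted p = 0.0161). Leaving out cKO replicate 2 gave a log2 fold change of 2.40 (95% interval 1.96 to 2.84, edgeR adjusted p = 2.05e-05). The call was lost without any 1 WT library and, narrowly, without cKO replicate 3 (edgeR adjusted p 0.0504 to 0.0787), although the log2 fold change stayed between 1.695 and 2.40. The gene shares no exon base with another gene, and 0 of its 50-base transcript words occur in another gene. The melanocortin receptor gene Mc1r, which lies just upstream on the same strand, had 0 to 2 counts in WT and 2 to 5 in cKO libraries.

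Isl1 encodes a LIM homeodomain transcription factor of motor, sensory and sympathetic neurons (chromosome 13, 116298281 to 116309689, minus strand). It was counted 20, 19 and 17 times in the WT libraries and 34, 27 and 51 times in the cKO libraries, which is 0.602, 0.548 and 0.465 CPM against 1.03, 0.969 and 1.46 CPM. The groups did not overlap, but the counts are small. Isl1 rose 2.14-fold (log2 fold change 1.10, SE 0.27, edgeR adjusted p = 0.0323), and leaving out cKO replicate 2 gave 1.21 (edgeR adjusted p = 0.00866). Of the 6 fits that each dropped 1 library, only that one kept the call, and without cKO replicate 1 the edgeR adjusted p was 0.0504. Its close relative Isl2, a factor of overlapping neuron types, had 0 to 3 counts in WT and 0 to 4 in cKO libraries and was too low to test.

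The upstream sequences of Tubb3 and Isl1, the called genes with the larger changes, and of Prph, which had the largest change among the intermediate filament transcripts without cKO replicate 2, are shown because they lie next to the starts of these messages. They are the 250 bases before the RefSeq start (GRCm38.p6), 5′ to 3′ on the gene's strand, with capitals for matches on either strand to the CCAAT box, GC box, TATA box or E-box, common elements of promoters. No matches in these 3 windows overlap each other. The RefSeq start of Tubb3 lies inside the gene as the count table annotates it.
Tubb3 (chr8:123411303-123411552, plus strand): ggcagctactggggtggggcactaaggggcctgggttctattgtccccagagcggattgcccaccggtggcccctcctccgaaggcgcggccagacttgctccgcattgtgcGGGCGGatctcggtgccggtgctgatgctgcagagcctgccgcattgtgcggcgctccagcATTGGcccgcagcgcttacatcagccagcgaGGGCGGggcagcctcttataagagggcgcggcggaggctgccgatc
Isl1 (chr13:116309689-116309938, minus strand): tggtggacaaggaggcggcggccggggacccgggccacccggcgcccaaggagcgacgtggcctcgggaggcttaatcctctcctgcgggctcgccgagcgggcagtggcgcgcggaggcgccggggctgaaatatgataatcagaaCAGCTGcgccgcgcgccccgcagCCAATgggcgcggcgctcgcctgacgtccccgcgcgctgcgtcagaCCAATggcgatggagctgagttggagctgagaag
Prph (chr15:99054924-99055173, plus strand): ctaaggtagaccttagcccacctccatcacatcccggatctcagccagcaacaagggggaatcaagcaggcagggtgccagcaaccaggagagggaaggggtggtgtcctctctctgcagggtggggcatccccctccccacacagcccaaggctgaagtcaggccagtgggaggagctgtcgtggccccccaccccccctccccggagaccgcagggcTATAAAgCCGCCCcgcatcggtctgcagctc
The Tubb3 window held 2 GC boxes and 1 CCAAT box, the Isl1 window 2 CCAAT boxes and 1 E-box, and the Prph window 1 TATA box and 1 GC box. Over all 32851 RefSeq windows of this length, the CCAAT box, searched for by the letters of its name, was found in 33.8%. The GC box was searched for as GGGCGG and was found in 32.7% of windows. The TATA box was searched for as TATAAA and was found in 12.4%. The E-box was searched for as CANNTG and was found in 66.2%. G and C made up 68% of the Tubb3 window, 71.2% of the Isl1 window and 65.2% of the Prph window, against a median of 52.4%. The left part (TTCAGCACC) and the right part of the RE1 element bound by the repressor REST were found in 0 of the 8 windows of Tubb3, Isl1, Prph, Uchl1 and Elavl4, and in 0.301% and 0.0974% of all windows. Matches that rare would hardly be met in any 8 windows, so their absence is no result about these genes. Some of the Elavl4 windows also overlap each other. All matches given here are letters, not binding sites. Nefl, Nefm, Nefh, Stmn2 and Snap25 had no window.

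The 3 neurofilament genes encode the light, medium and heavy subunits that together form the filaments setting axon calibre. Nefh (chromosome 11, 4938754 to 4948064) was at 17.2, 18.9 and 14.7 CPM in the WT group and 30.7, 21.03 and 29.6 CPM in the cKO group. It rose, with every cKO library above every WT library (log2 fold change 0.68, SE 0.17, edgeR adjusted p = 0.0366). Dropping 1 library at a time kept the call in 1 of 6 cases, when cKO replicate 2 was dropped (log2 fold change 0.83, edgeR adjusted p = 6.21e-05).

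Nefl was at 14.0, 16.2 and 12.3 CPM in the WT group and 22.7, 14.2 and 28.2 CPM in the cKO group. Nefm was at 5.93, 8.53 and 6.02 CPM in the WT group and 14.2, 7.93 and 15.7 CPM in the cKO group. For both, cKO replicate 2 fell inside the WT range and the other cKO libraries lay above it. Neither was called (Nefl log2 fold change 0.62, 95% interval 0.02 to 1.22, edgeR adjusted p = 0.135, and Nefm 0.89, interval 0.22 to 1.56, edgeR adjusted p = 0.0729). Without cKO replicate 2 the values were 0.85 (edgeR adjusted p = 0.000323) and 1.13 (edgeR adjusted p = 0.000131), and both were called. Nefl and Nefm are neighbours on chromosome 14 on opposite strands, and their annotated exons share 1108 bases, 32.8% of the Nefl exons and 19.2% of those of Nefm. Strand was not used in counting, and no option to count such fragments for both genes was set, so fragments from the shared stretch are left out of both counts.

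Together the 3 neurofilament transcripts summed to 37.2, 43.6 and 33.0 CPM in the WT group and 67.7, 43.2 and 73.5 CPM in the cKO group. Within that sum, Nefh made up 44.8 ± 1.52% of it in WT and 44.8 ± 4.24% in cKO (SD, n = 3 each). The share of Nefl was 37.3 ± 0.342% and 34.9 ± 2.97%, and that of Nefm 17.9 ± 1.84% and 20.3 ± 1.65% (SD, n = 3 each). The Nefl share was 37.7, 37.1 and 37.1% in WT and 33.5, 32.9 and 38.3% in cKO libraries. A 2-sided exact permutation test gave p = 1, 0.4 and 0.2 for Nefh, Nefl and Nefm, but 3 against 3 cannot go below 0.1, so it cannot show whether the shares differ. The CPM of Tubb3 divided by the summed neurofilament CPM was 0.138, 0.0952 and 0.178 in WT and 0.471, 0.257 and 0.294 in cKO libraries, without overlap (2-sided exact permutation p = 0.1, the smallest possible). That ratio was chosen after the values had been seen.

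**Figure D2:**
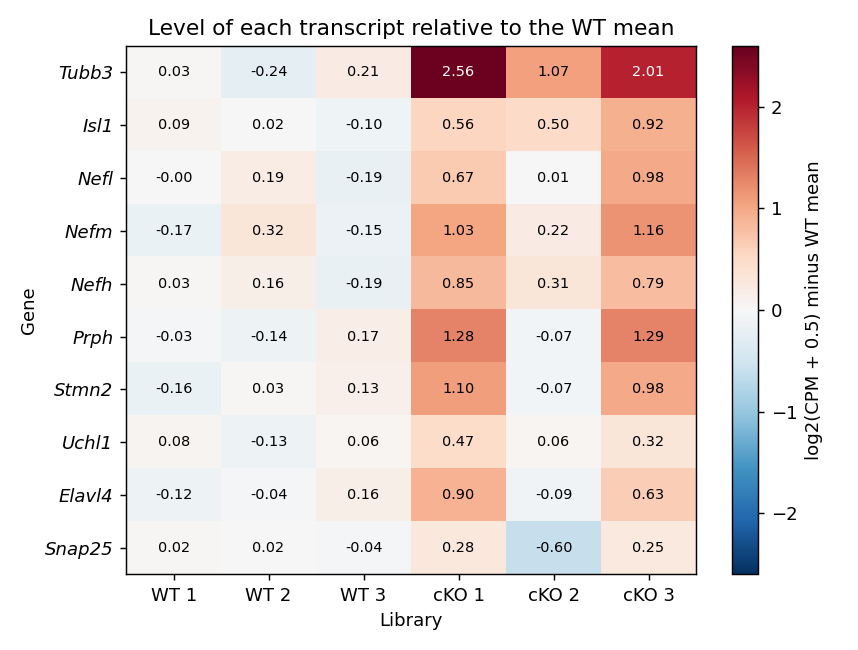
Level of each transcript (rows) in each library (columns) as log2(CPM + 0.5) minus the mean of the 3 WT libraries; red is above and blue below the WT mean. The columns of cKO replicates 1 and 3 are red throughout, up to 2.56 for Tubb3, while that of cKO replicate 2 runs from -0.60 for Snap25 to 1.07 for Tubb3.

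Prph encodes peripherin, the intermediate filament protein of peripheral neurons (chromosome 15). It was at 6.62, 6.08 and 7.66 CPM in the WT group and 17.1, 6.42 and 17.2 CPM in the cKO group. The value of cKO replicate 2 lay within the WT range, and the gene was not called (2.01-fold, 95% interval of the log2 fold change 0.10 to 1.90, edgeR adjusted p = 0.113). Leaving that library out gave a log2 fold change of 1.34 (interval 1.07 to 1.61, edgeR adjusted p = 3.02e-06), the smallest p of the 10 genes in that fit.

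Stmn2 encodes stathmin-2, a regulator of microtubule dynamics needed for axon growth and upkeep (chromosome 3). Its level was 10.3, 11.9 and 12.7 CPM in the WT group and 25.3, 11.02 and 23.3 CPM in the cKO group, with cKO replicate 2 again inside the WT range. It was not called on all libraries (log2 fold change 0.77, edgeR adjusted p = 0.129) and was called without cKO replicate 2 (1.06, edgeR adjusted p = 9.42e-06).

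Uchl1 encodes PGP9.5, a ubiquitin hydrolase abundant in neurons and a common stain for nerve fibres (chromosome 5). It was at 25.6, 22.1 and 25.3 CPM in the WT group and 33.8, 25.3 and 30.5 CPM in the cKO group. Its log2 fold change was 0.30 (95% interval -0.01 to 0.61, edgeR adjusted p = 0.159), and 0.40 without cKO replicate 2 (edgeR adjusted p = 0.00607). The exons of Uchl1 share 295 bases with those of its antisense gene Uchl1os, which had 1 count in 1 library and 0 in the rest.

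Elavl4 encodes HuD, a neuronal RNA-binding protein that stabilises messages of growing axons (chromosome 4). It had 9, 11 and 16 counts in WT and 35, 8 and 28 in cKO libraries, and the groups overlapped through cKO replicate 2. The log2 fold change of 1.07 had a 95% interval of -0.09 to 2.23 (edgeR adjusted p = 0.172), and without cKO replicate 2 it was 1.43 (interval 0.65 to 2.21, edgeR adjusted p = 0.00774).

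Snap25 encodes a SNARE protein of synaptic vesicle fusion, which acts at nerve terminals (chromosome 2). Its level was 1.59, 1.59 and 1.51 CPM in the WT group and 2.01, 0.861 and 1.94 CPM in the cKO group, so the cKO values lay on either side of WT. It was the 1 member not called in either fit, with a log2 fold change of 0.05 (95% interval -0.73 to 0.82, edgeR adjusted p = 0.936) on all libraries. Without cKO replicate 2 it was 0.34 (interval -0.14 to 0.81, edgeR adjusted p = 0.261), an interval that still holds changes as large as that of Uchl1.

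**Figure D3:**
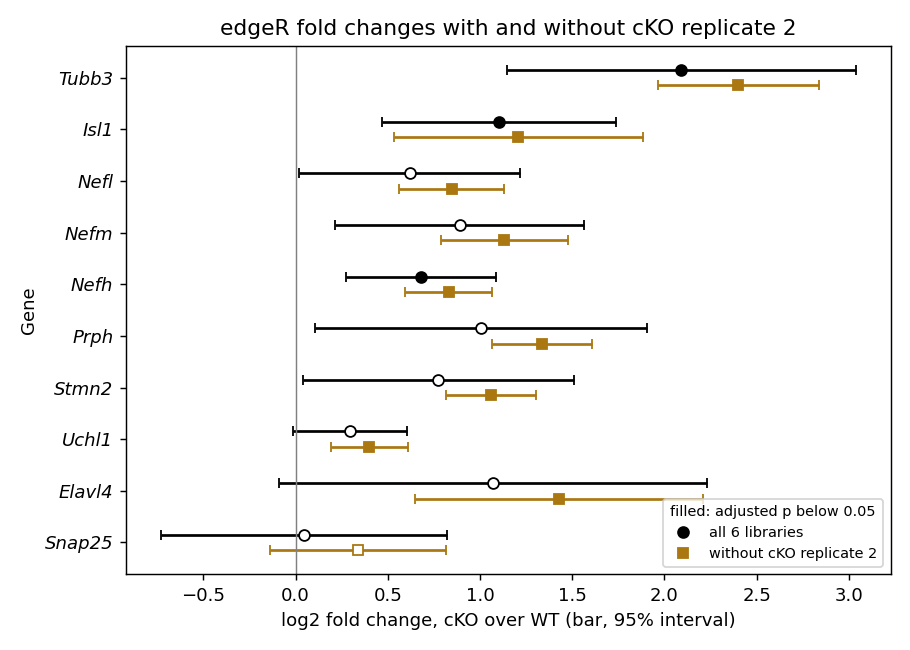
Log2 fold changes (cKO over WT, x axis) of the 10 transcripts with 95% intervals, from all 6 libraries (black circles) and without cKO replicate 2 (brown squares); filled symbols passed an edgeR adjusted p of 0.05. Tubb3, Isl1 and Nefh are filled in black and 9 genes, all but Snap25, in brown.

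Levels were compared between genes only per length, as CPM per kilobase of exon that no other gene shares. In WT nerves Uchl1 was highest at 18.2 ± 1.45, followed by Nefl (6.23 ± 0.861), Nefh (4.25 ± 0.520), Prph (3.40 ± 0.402), Tubb3 (2.70 ± 0.465), Stmn2 (2.08 ± 0.221) and Nefm (1.46 ± 0.316). Far lower came Snap25 (0.230 ± 0.00723), Isl1 (0.136 ± 0.0174) and Elavl4 (0.0635 ± 0.0160; SD, n = 3 each). In that order the WT libraries of Nefh and Prph, of Prph and Tubb3, and of Tubb3 and Stmn2 overlapped, and those of the other neighbours did not. In cKO nerves Uchl1 was highest (22.3 ± 3.18), and Tubb3 (11.5 ± 5.56) and Nefl (9.55 ± 3.10; SD, n = 3 each) followed with overlapping libraries. Tubb3 was at 17.1, 5.94 and 11.6 and Nefl at 9.99, 6.26 and 12.4 in cKO replicates 1, 2 and 3, so that Tubb3 was above Nefl in 1 of the 3. Counted over all exons, shared ones included, Nefl and Nefh were at 4.19 ± 0.579 and 4.25 ± 0.520 in WT (SD, n = 3 each), so the order of these 2 depends on how the shared stretch is treated.

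**Figure D4:**
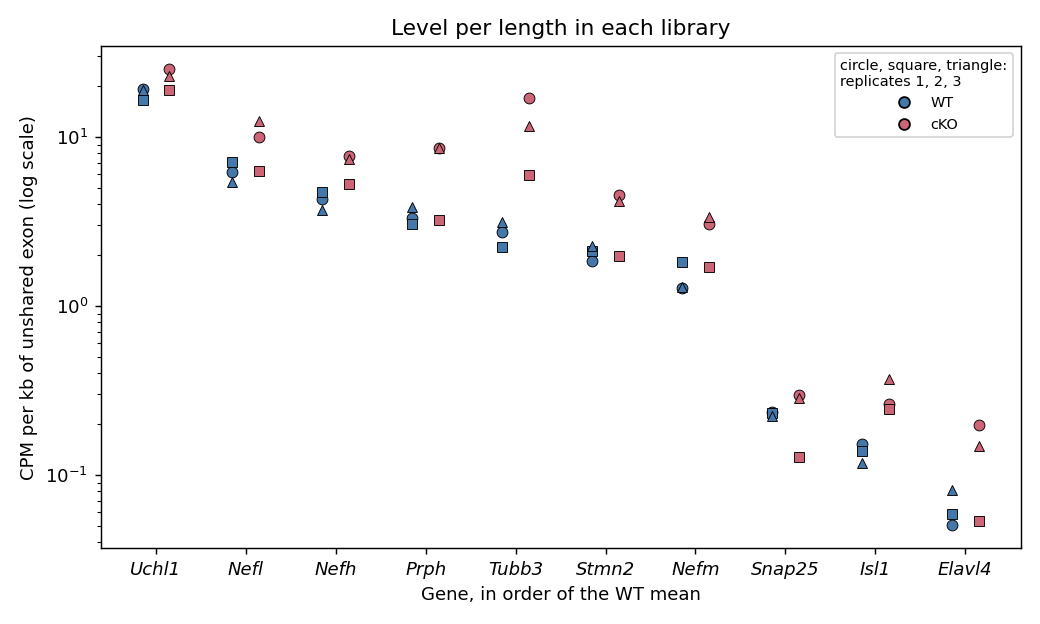
CPM per kilobase of unshared exon (y axis, log scale) of each transcript in the 3 WT (blue) and 3 cKO (red) libraries, ordered by the WT mean. Levels span from Uchl1 at 18.2 to Elavl4 at 0.0635 in WT, and Tubb3 shows the widest gap between the groups.

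Microtubules are built of tubulins in all cells, and other tubulin genes were examined beside Tubb3. Counts of calls in this and the following lists stand beside 8.55% of all genes tested called higher and 10.3% called lower. Without cKO replicate 2 those shares were 17.8% and 17.6%. Of 7 other beta-tubulin genes 0 were called higher and 2 lower (median log2 fold change -0.02). Tubb2b was at 258.8, 267.2 and 257.4 CPM in the WT group and 143.6, 132.5 and 130.7 CPM in the cKO group and fell (log2 fold change -0.95, edgeR adjusted p = 0.00111). Tubb4a fell as well (-0.84, edgeR adjusted p = 0.00283). Tubb6 had a log2 fold change of 0.75 and was not called (edgeR adjusted p = 0.135), and without cKO replicate 2 it was called at 0.31. Among 7 alpha- and gamma-tubulin genes 0 were called higher and Tuba1a, a main alpha-tubulin of the developing nervous system, fell from 846.2 ± 27.3 to 374.6 ± 11.7 CPM on average (SD, n = 3 each, log2 fold change -1.18, edgeR adjusted p = 0.000752). Tuba1b (0.31) and Tuba1c (0.18) were not called, and both were called higher without cKO replicate 2 (0.36 and 0.22).

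Other genes of neurite microtubules and growth cones went both ways. Of 16 tested, 4 were called higher and 4 lower (median log2 fold change 0.39). Stmn4, a relative of Stmn2 expressed in neurons, was at 1.90, 1.93 and 1.97 CPM in the WT group and 5.80, 4.70 and 5.11 CPM in the cKO group. Unlike Stmn2 it was high in cKO replicate 2 too, and it rose (log2 fold change 1.43, edgeR adjusted p = 0.00221). Stmn3 (2.44, 3.43 and 3.91 CPM in WT, 7.57, 3.16 and 7.11 CPM in cKO) had cKO replicate 2 inside the WT range, like Stmn2, and was not called (0.87, edgeR adjusted p = 0.136), and without that library it was called higher (1.17, edgeR adjusted p = 0.000319). Stmn1, the widely expressed stathmin, had -0.30 (edgeR adjusted p = 0.160). The growth cone proteins Gap43 (1.14, edgeR adjusted p = 0.00346) and Basp1 (0.83, edgeR adjusted p = 0.00527) rose, both of which Schwann cells can also express. The called gene with the largest change fell: Dpysl5, a collapsin response mediator of growing neurites, was at 12.4, 8.41 and 9.14 CPM in the WT group and 1.79, 4.77 and 2.80 CPM in the cKO group (-1.68, edgeR adjusted p = 0.0230). The microtubule-associated protein genes Map1a (-0.63) and Map1b (-0.48) and the mediator Dpysl2 (-0.67) fell too, and its relative Dpysl3 rose (0.74). Of the 6 other intermediate filament genes 0 were called, with log2 fold changes of 1.04 for Synm, -0.53 for Nes and -1.04 for Ina, the alpha-internexin gene, whose protein joins neurofilaments. Without cKO replicate 2, Synm was called higher and Nes lower.

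Of 14 tested genes for neuronal RNA-binding proteins and their relatives 2 were called higher and 1 lower (median 0.23). Elavl2, a neuronal relative of Elavl4, was counted 34, 18 and 21 times in WT and 69, 44 and 61 times in cKO libraries and rose (log2 fold change 1.36, edgeR adjusted p = 0.0267). Elavl3 had 8, 6 and 9 counts in WT and 25, 6 and 18 in cKO libraries, low in cKO replicate 2 as Elavl4 was, and was too low to test on all libraries. Without cKO replicate 2 it was called higher (1.51, edgeR adjusted p = 0.0122). Nova1, a splicing factor of neurons, rose (0.61, edgeR adjusted p = 0.0394). Leaving out WT replicate 2 or 3 or cKO replicate 1 or 3 gave 0 higher calls in this list. Ptbp2 fell (-0.82, edgeR adjusted p = 0.0308), and without cKO replicate 2 it was not called (-0.75, edgeR adjusted p = 0.101).

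SNARE and synaptic vesicle genes went both ways. Of 21 tested, 2 were called higher and 5 lower (median 0.13), beside 8.55% and 10.3% of all genes tested. Without cKO replicate 2 these counts were 5 and 7, beside 17.8% and 17.6% of all genes tested. The vesicle protein gene Syp fell from 6.06 ± 0.162 to 3.65 ± 0.720 CPM on average (SD, n = 3 each, log2 fold change -0.73, edgeR adjusted p = 0.0332). Syt11 had the largest change of the list, from 53.4 ± 1.99 to 12.6 ± 1.63 CPM on average (SD, n = 3 each, -2.08, edgeR adjusted p = 0.000266). Among the relatives of Snap25, which serve fusion in many cell types, Snap47 rose (0.62, edgeR adjusted p = 0.0144). Snap23 (0.21, edgeR adjusted p = 0.231) and Snap29 (0.31, edgeR adjusted p = 0.0568) were not called, and Snap29 was without cKO replicate 2 (0.32, edgeR adjusted p = 0.0144). The 3 other genes for ubiquitin hydrolases related to Uchl1 were not called, with Uchl5 at 0.29 (edgeR adjusted p = 0.0896), Uchl3 at 0.32 and Bap1 at 0.07.

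Of 15 tested genes for axonal transport, channels and adhesion, 4 were called higher and 3 lower (median -0.10), beside 8.55% and 10.3% of all genes. Without cKO replicate 2 these counts were 5 and 7, beside 17.8% and 17.6%. The neuronal kinesin heavy chain gene Kif5a was at 85.7, 86.4 and 68.7 CPM in the WT group and 152.4, 104.5 and 158.5 CPM in the cKO group and rose (0.79, edgeR adjusted p = 0.0261). Kif5c rose similarly (0.73, edgeR adjusted p = 0.0334), and the ubiquitous Kif5b had -0.10 (edgeR adjusted p = 0.613). Thy1, a surface protein of neurons and of other cells, rose (0.92, edgeR adjusted p = 0.00989). Kif3c (-1.68, edgeR adjusted p = 0.000253) and the adhesion gene Cntn1 (-1.83, edgeR adjusted p = 0.00180) fell.

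**Figure D5:**
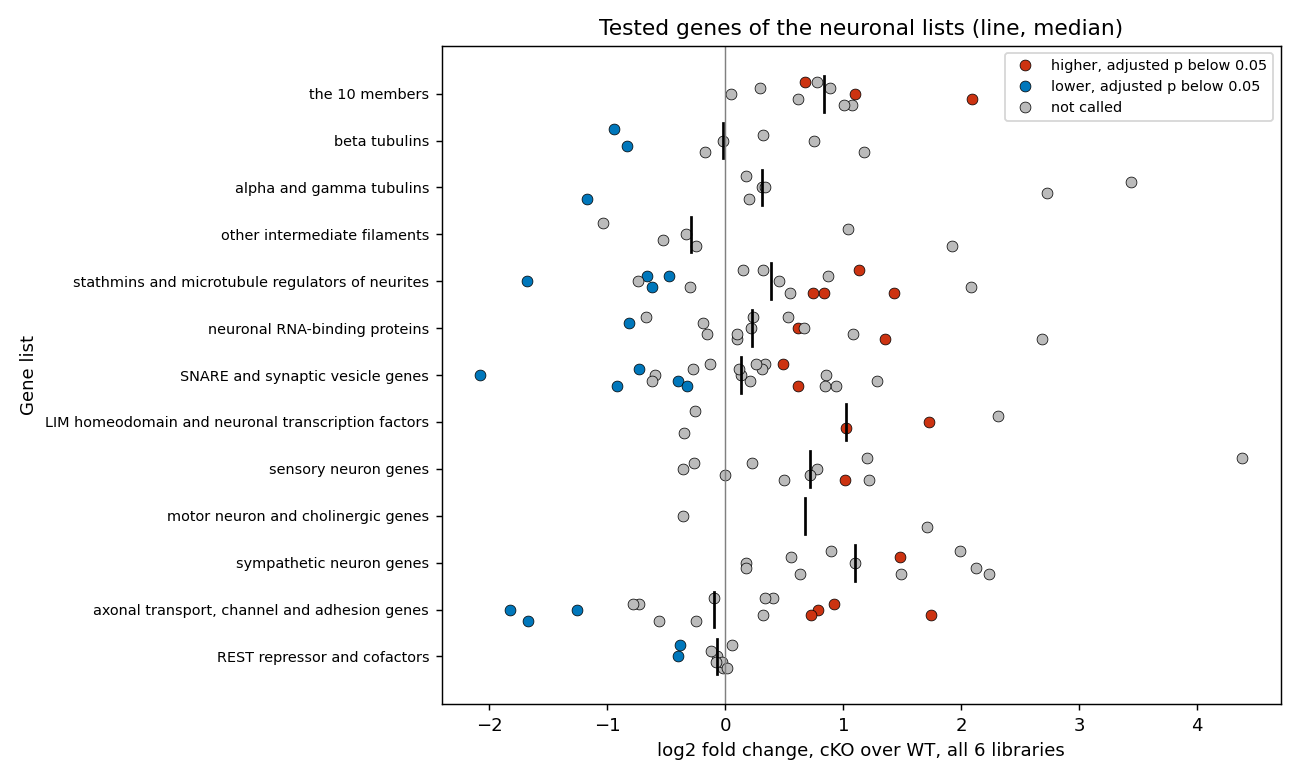
Log2 fold changes (cKO over WT, all 6 libraries, x axis) of the tested genes of each list (rows), each point 1 gene, with the list median as a line; red and blue points were called higher and lower. The 10 neuronal transcripts all lie at or above 0 with a median of 0.83, whereas the tubulin, SNARE and axonal transport lists spread to both sides. Medians of the sympathetic (1.10), transcription factor (1.02) and sensory (0.71) lists were also above 0, and were 0.92, 1.05 and 0.86 without cKO replicate 2. That of the motor neuron list (0.68) rested on 2 tested genes and was -0.09 without that library. None of the genes in those lists was called lower.

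Genes associated with sensory, motor and sympathetic neurons were examined next, and not all of them are confined to these neurons. Of 18 sensory neuron genes 11 could be tested, and Avil, the actin-binding protein advillin of sensory neurons, was the 1 called: it had 47, 44 and 52 counts in WT and 88, 73 and 105 in cKO libraries (log2 fold change 1.01, edgeR adjusted p = 0.0105). The call of Avil was lost when WT replicate 1, 2 or 3 was left out. Ret (0.71, edgeR adjusted p = 0.0916) and the purine receptor gene P2rx3 (1.22, edgeR adjusted p = 0.106) were not called. Without cKO replicate 2, 4 of the 11 tested were called higher and 0 lower, beside 17.8% of all genes tested called higher. The sodium channel gene Scn10a had 4, 0 and 0 counts in WT and 1, 0 and 15 in cKO libraries, and the glutamate transporter gene Slc17a6 had 0 in WT and 1, 0 and 4 in cKO libraries. Slc17a6 and the sensory factor gene Prdm12, with 4 counts in cKO replicate 3 and 0 elsewhere, are expressed in sensory cell bodies. A count of 0 allows up to 3 counts, which is 0.0821 to 0.108 CPM in these libraries, and these limits cover counting error only.

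Of 6 motor neuron and cholinergic genes 2 could be tested. The acetylcholine-synthesising enzyme gene Chat had 0 to 2 counts in every library, Mnx1 had 1 count in all 6 together, and Lhx3 had 0. The choline transporter gene Slc5a7 (-0.36, edgeR adjusted p = 0.352) and Ache (1.71, edgeR adjusted p = 0.267) were those 2 and were not called. Ache, which muscle also makes, was at 47.0 CPM in cKO replicate 2 and 4.86 to 6.71 CPM in the other libraries.

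Among 11 tested sympathetic neuron genes 1 was called, the transcription factor gene Gata3, with 15, 11 and 10 counts in WT and 44, 19 and 31 in cKO libraries (log2 fold change 1.48, edgeR adjusted p = 0.0319). That call was lost when WT replicate 1, 2 or 3 or cKO replicate 1 or 3 was left out. Chga, of secretory granules, had 1.49 (edgeR adjusted p = 0.0692) and was called higher without cKO replicate 2 (log2 fold change 1.698, edgeR adjusted p = 0.0127). Th, the rate-limiting enzyme of catecholamine synthesis, had 2.24 (edgeR adjusted p = 0.115), with 67 of its counts in cKO replicate 2. Without that library 6 of 12 tested sympathetic genes were called higher and 0 lower, Npy among them. Of all genes tested in that fit 17.8% were called higher. Npy had 2, 1 and 1 counts in WT and 24, 6 and 24 in cKO libraries and was too low to test on all of them. The neuropeptide transcript was thus lower in cKO replicate 2 than in the other cKO libraries, the order seen for Prph and Stmn2.

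Of 18 genes for LIM homeodomain and other neuronal transcription factors 5 could be tested, and 2 were called. Lmx1b (16, 28 and 24 counts in WT, 40, 35 and 52 in cKO) and Lhx2 (10, 6 and 3 counts in WT, 20, 22 and 16 in cKO) rose, with log2 fold changes of 1.02 and 1.72 (edgeR adjusted p = 0.0387 and 0.0464). Leaving out WT replicate 1, 2 or 3 or cKO replicate 1 or 3 gave 0 calls in this list. Pou4f1 had 2.31 and was not called (edgeR adjusted p = 0.0987), and of its counts 72 were in cKO replicate 2. Neurod1, of early neuron differentiation, had 0 counts in every library, as Lhx3 had.

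Actl6b encodes BAF53b, which takes the place of BAF53a in the BAF complex of neurons. It had 4 counts in each WT library and 11, 5 and 12 in cKO libraries, too few to test on all libraries, and without cKO replicate 2 it was called higher (1.53, edgeR adjusted p = 0.0319). Of the 3 other neuronal BAF subunit genes Ss18l1 fell (-0.57, edgeR adjusted p = 0.0298), and Dpf1 (-0.24) and Dpf3 (1.52) were not called. Their progenitor counterparts were not called either, with Ss18 at -0.34 (edgeR adjusted p = 0.0595, and called lower at -0.25 without cKO replicate 2), Phf10 at 0.10 and Dpf2 at -0.06. Rest, which encodes the repressor of neuronal genes in other cells, was at 62.5, 64.5 and 68.2 CPM in the WT group and 55.3, 44.0 and 50.1 CPM in the cKO group and fell (-0.39, edgeR adjusted p = 0.0434). Its corepressor gene Rcor3 fell too (-0.41, edgeR adjusted p = 0.0158), and the other 7 cofactor genes were not called, among them Sin3a at -0.08. The calls of Rest and Rcor3 were lost when WT replicate 1, 2 or 3 or cKO replicate 3 was left out.

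Markers of other cells in the nerve moved beside these transcripts. Of 9 Schwann cell markers 6 were called lower and 0 higher, and their summed level was 22175 to 25645 CPM in the WT group and 2968 to 5076 CPM in the cKO group, lowest in cKO replicate 2. Of 7 macrophage markers 5 were called higher, from 483.9 to 551.3 CPM summed in WT to 785.9 to 1047 CPM in cKO. Erythroid markers (4 of 7 higher, and 0 without cKO replicate 2) summed to 2725 to 3940 CPM in the WT group and 6745 to 21868 CPM in cKO, highest in cKO replicate 1. Of 7 fibroblast markers 2 were higher (4 without cKO replicate 2), with sums of 18508 to 19239 and 17223 to 21469 CPM. The 15 muscle markers had 0 calls (3 higher and 1 lower without cKO replicate 2) and summed to 3770 to 5526 CPM except in cKO replicate 2, at 70013 CPM. The median log2 fold change of the 10 neuronal transcripts was larger without that library (1.10) and with the muscle share as a covariate (1.16). As the muscle share was high in that library alone, these fits are not separate checks. Melanocyte markers (2 of 5 tested lower, 0 higher) summed to 58.8 to 59.5 and 40.1 to 47.5 CPM, with Mlana at 0 to 3 counts per library. Of the 6 central glia markers, Olig1 and Olig2 had 0 to 2 counts and Mog 3 to 6 per library, Aqp4 reached 99.1 CPM in cKO replicate 2 against 1.76 to 5.86 CPM elsewhere, and 0 were called. The part of Schwann cells, macrophages, red cells and fibroblasts in the levels of the neuronal transcripts was not tested.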

How the data were processed

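The authors deposited 1 table of raw fragment counts per gene for the 6 libraries, made with featureCounts 1.6.1 on exons of Ensembl GRCm38 release 95, with both ends mapped, a minimum mapping quality of 20 and no strand, per the file headers. Per the submitters' processing notes, Subread 2.0 and DESeq2 1.3 were also used; the aligner and its settings: not given in the sources used here. An input of 150 ng of total RNA entered a library, per the labels' protocols. Gene coordinates came from the deposited count table. Symbols came from a reference table of gene names and GENCODE M21, which matched 54809 of 54838 identifiers. Drgx was found through a RefSeq synonym. 0 rows lacked an identifier. Groups and replicate numbers came from the titles.

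Counts were tested with edgeR 4.0.16 in R 4.3.3 (filterByExpr with a minimum count of 10, TMM, robust quasi-likelihood F test, 2-sided, 4 residual degrees of freedom, Benjamini-Hochberg over 18775 genes). Intervals are 95%. On simulated counts with 200 changed genes, the share recovered was 93% for 4-fold and 34% for 2-fold differences, with 3.79% false calls. Those counts were drawn gene by gene at the trended dispersion, with no library set apart as cKO replicate 2 was. The shares may therefore not hold for the real libraries. Alternatives were DESeq2 size factors, DESeq2 1.42.0, limma 3.58.1 (voom with quality weights), no filter, a muscle covariate, a replicate block and leaving out each library. No pair of libraries within a group looked like 1 library deposited again (chi-square over its degrees of freedom 8.26 to 311.6).

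The 10 genes and the 22 other lists were chosen with earlier results of these data known. Named were all members, up to 3 genes of each list with the smallest p, defining markers at 0, overlapping genes and close relatives, Actl6a and Actl6b, and the genes most like Tubb3, Isl1 and Nefl. The ratio of Tubb3 to neurofilaments and Kif5a, Kif5b, Kif5c, Scn10a, Slc17a6, Prdm12, Chat, Mnx1, Npy, Map1a, Map1b, Dpysl2, Dpysl3, Dpysl5, Dpf2, Mlana, Olig1, Olig2 and Mog were chosen after their values were seen. Some genes that this rule names are not reported here.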

Additional observations from a re-analysis of the deposited data

How the results depend on the processing

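On all genes, 1605 higher and 1929 lower calls became 3228 and 3159 with limma voom and quality weights (which gave cKO replicate 2 a weight of 0.162, against 0.867 to 2.14), and 3238 and 3288 with the muscle covariate. Leaving out 1 library gave 449 to 3425 higher and 790 to 3398 lower. The 3 calls higher among the neuronal transcripts became 6 with the DESeq2 test, 9 with limma and 9 with the muscle covariate. The DESeq2 test called 2254 of all genes higher. When 1 library was left out, the calls among the 10 ran from 0 to 9. They were 0 without WT replicate 1, 2 or 3, where only 449, 483 and 456 of all genes were called higher. Without cKO replicate 3 they were 0 (835 of all genes), without cKO replicate 1 they were 1 (1345), and without cKO replicate 2 they were 9 (3425). With no low-count filter 2 of the 10 were called, and Tubb3 was not (edgeR adjusted p = 0.0610). None was called lower under any alternative listed. The median log2 fold change of the 10 stayed between 0.64 and 1.16. Leaving out cKO replicate 2, the muscle covariate and the quality weights all lessen the part of that library, so they are not separate checks. Of 120 refitted log2 fold changes of single members 21 passed the threshold anew, 17 lost it and 0 reversed a call. Of 528 recounted list calls 128 moved by more than 1.5 times. With the replicate number as a block 744 genes were higher and 1108 lower, and 1 of the 10 transcripts, Tubb3, was called. Same-numbered deviations from the group means correlated at -0.289, -0.299 and -0.0961 over genes. These values show no sign of pairing by number, but with so few libraries they cannot exclude it. Depth limits Isl1, Elavl4 and the neuron type genes.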

Other observations

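The genes whose log2 CPM followed Tubb3 most closely over the 6 libraries were Tenm1, Fam72a, Sytl3, BC022960 and Sirpa, with Pearson r of 0.995 to 0.998. Tenm1, a teneurin of axon guidance and synapses, went from 3.90 ± 0.354 to 9.53 ± 3.25 CPM, and Sirpa, a receptor of macrophages and neurons, from 82.1 ± 2.65 to 118.8 ± 13.6 CPM (SD, n = 3 each). For Isl1 they were Samhd1, Il17ra, Gm43460, P4ha3 and Nfatc4 (0.993 to 0.997). Among those closest to Nefl were Dennd1c, Zbtb7c and Clec1a (0.991 to 0.993). These values share libraries and 2 genotypes, and 495, 337 and 172 of 18774 genes reached 0.95 with Tubb3, Isl1 and Nefl, so they are descriptions with no test.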
